A study of Mus musculus with 16 samples.

Results

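The peaks of 10 ETS transcription factor loci, Spi1 (which encodes PU.1), Ets1, Ets2, Fli1, Elf1, Elk3, Etv1, Etv3, Etv6 and Gabpa, are described one by one in germinal center B cells with 1 or 2 intact copies of Smarca4. A peak belonged to a locus when that gene had the protein-coding RefSeq span (GRCm38.p6, which mm10 denotes) nearest to the peak's middle, at most 50 kb away. This rule, which uses position and no measured value, gave 185 of the 82188 peaks of the series, each 501 bp wide. Ets1 received 47 peaks, Etv6 38, Fli1 27, Elk3 26, Elf1 20, Etv1 8, Ets2 7, Spi1 5, Etv3 4 and Gabpa 3. Of the 185, 125 lay inside a gene more than 1 kb from its ends, 48 lay outside, and 12 lay within 1 kb of a gene end.

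ETS factors share a winged helix-turn-helix DNA-binding domain that reads the core GGAA, and flanking bases and partner proteins decide which member occupies which site. PU.1 is required for myeloid and B lymphoid development and pairs with IRF4 or IRF8 on composite sites in B cells. ETS1 holds back plasma cell differentiation, FLI1 and ELF1 act broadly in blood cells, ETV6 and ETV3 repress, ELK3 pairs with SRF, and GABPA pairs with GABPB subunits at many housekeeping promoters.

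Chromatin accessibility was measured by Omni-ATAC, in which a transposase cuts and tags open chromatin, in spleen cells of C57BL/6 mice of 8 to 10 weeks. The tested genotype was Smarca4+/- (HET), with 4 libraries labelled CC and 4 labelled CB, and its comparison was Smarca4+/+ (WT), also with 4 CC and 4 CB libraries. CC and CB are read here as centrocytes and centroblasts, which the labels do not spell out, and the labels give neither a sort gate nor the deleted part of Smarca4 nor any Cre. Smarca4 encodes BRG1, an ATPase subunit of the BAF chromatin remodeling complex. Nothing in the labels says that the 4 libraries of a group came from separate animals, so a p-value here speaks of the spread among these libraries, which may be technical.

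Library totals over all peaks were 5310327 to 7474760 counts in HET CC, 3494356 to 3750936 in WT CC, 38716281 to 51011923 in HET CB and 31696941 to 38798802 in WT CB. CC values rest on fewer counts than CB values, and since amplified reads are not independent molecules, depth speaks to counting error only. Levels are in CPM, counts per 1000000 of the library total after scaling by the trimmed mean of M-values (TMM). A change is an adjusted p below 0.05 in edgeR's quasi-likelihood test whose p-values were adjusted by the Benjamini-Hochberg method across the 82188 peaks or, for sums, the 15139 genes with a peak. Every adjusted p printed is from this test unless another setting is named, and standard errors (SE) of log2 differences are those of the fit. All 7 germinal center B cell markers and all 7 B cell markers examined had peaks. In bulk libraries, more cells of a type and more accessibility per cell cannot be told apart.

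The RefSeq promoter table (GRCm38.p6) held windows, from 250 bases before to 50 bases after a gene start, for 7 of the 10 loci and for none of Spi1, Ets1 and Fli1. The 5 windows printed here belong to loci that the results turn on. The Gabpa window overlaps a peak that was more accessible in CC in both genotypes. The Etv6 window overlaps one that was so in WT and was not called in HET. The Elk3 and Etv3 windows overlap peaks that were not called. The Etv1 window overlaps no peak and belongs to the locus with the largest differences among the 10. Each runs 5′ to 3′ along the gene's own strand, and capitals mark the ETS core, GGAA or its complement TTCC, on either strand.
Gabpa, chr16:84834874-84835173 (+ strand): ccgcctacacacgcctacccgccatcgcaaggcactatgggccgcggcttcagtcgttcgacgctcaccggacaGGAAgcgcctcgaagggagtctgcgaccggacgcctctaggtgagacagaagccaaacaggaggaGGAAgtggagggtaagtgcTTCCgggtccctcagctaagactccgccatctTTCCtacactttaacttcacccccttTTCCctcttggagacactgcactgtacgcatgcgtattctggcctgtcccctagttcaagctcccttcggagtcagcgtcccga
Etv6, chr6:134035450-134035749 (+ strand): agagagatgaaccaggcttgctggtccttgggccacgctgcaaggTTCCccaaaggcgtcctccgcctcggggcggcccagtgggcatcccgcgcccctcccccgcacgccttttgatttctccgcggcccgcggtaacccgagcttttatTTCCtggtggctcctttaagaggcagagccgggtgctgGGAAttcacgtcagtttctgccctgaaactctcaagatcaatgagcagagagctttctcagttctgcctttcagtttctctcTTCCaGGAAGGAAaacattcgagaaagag
Elk3, chr10:93311110-93311409 (- strand): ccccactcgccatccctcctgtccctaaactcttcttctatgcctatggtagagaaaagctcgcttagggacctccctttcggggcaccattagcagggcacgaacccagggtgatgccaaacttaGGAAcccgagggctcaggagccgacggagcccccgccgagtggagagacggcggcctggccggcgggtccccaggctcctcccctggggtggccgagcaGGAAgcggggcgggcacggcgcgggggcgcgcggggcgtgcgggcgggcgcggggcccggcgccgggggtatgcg
Etv3, chr3:87525328-87525627 (+ strand): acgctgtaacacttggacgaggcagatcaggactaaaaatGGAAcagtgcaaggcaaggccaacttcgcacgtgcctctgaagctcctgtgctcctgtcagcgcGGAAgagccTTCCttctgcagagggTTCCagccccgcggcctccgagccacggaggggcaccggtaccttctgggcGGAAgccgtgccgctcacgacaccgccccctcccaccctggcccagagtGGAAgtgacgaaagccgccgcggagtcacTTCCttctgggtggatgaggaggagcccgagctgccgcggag
Etv1, chr12:38779832-38780131 (+ strand): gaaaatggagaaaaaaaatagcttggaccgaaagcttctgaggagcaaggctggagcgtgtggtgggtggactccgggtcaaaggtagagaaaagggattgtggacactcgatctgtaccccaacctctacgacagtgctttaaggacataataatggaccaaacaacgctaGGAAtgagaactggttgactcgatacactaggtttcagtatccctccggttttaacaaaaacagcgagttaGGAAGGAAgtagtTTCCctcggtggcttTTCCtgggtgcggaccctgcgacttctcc

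The core occurred 5 times in the Gabpa window, 6 times in the Etv6 window, 2 times in the Elk3 window, 7 times in the Etv3 window and 5 times in the Etv1 window. It occurred in 96.0% of all 32851 promoter windows of the table, with a median of 3 matches, so its presence sets these windows apart from few others. The longer PU box GAGGAAGT, which contains the core, was searched on both strands and found once in the Gabpa window and in no other window of the 7 loci, against 3.2% of all windows. The letters CCGGAAGT, another site that contains the core, were in none of the 9 windows of the 7 loci, against 3.89% of all windows.

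Summed over the peaks of each locus, 7 of the 10 ETS loci differed between CC and CB in HET and 5 of 10 did so in WT. In HET, Etv1, Gabpa and Ets2 were higher in CC, and Etv6, Elk3, Spi1 and Elf1 were lower. In WT, Etv1, Gabpa and Fli1 were higher in CC and Etv6 and Elk3 were lower. Among all 15139 genes, 62.8% were called between CC and CB in HET and 63.4% in WT, so shares of 7 and 5 in 10 are near the background. Between the genotypes, 2 loci were lower in HET than in WT within CC (Etv1 and Fli1), where 6.63% of all genes were called, and none within CB, where 0.555% were. None of the 10 loci was called for the interaction, the HET effect in CC minus the HET effect in CB, for which 0.41% of all genes were.

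**Figure D1:**
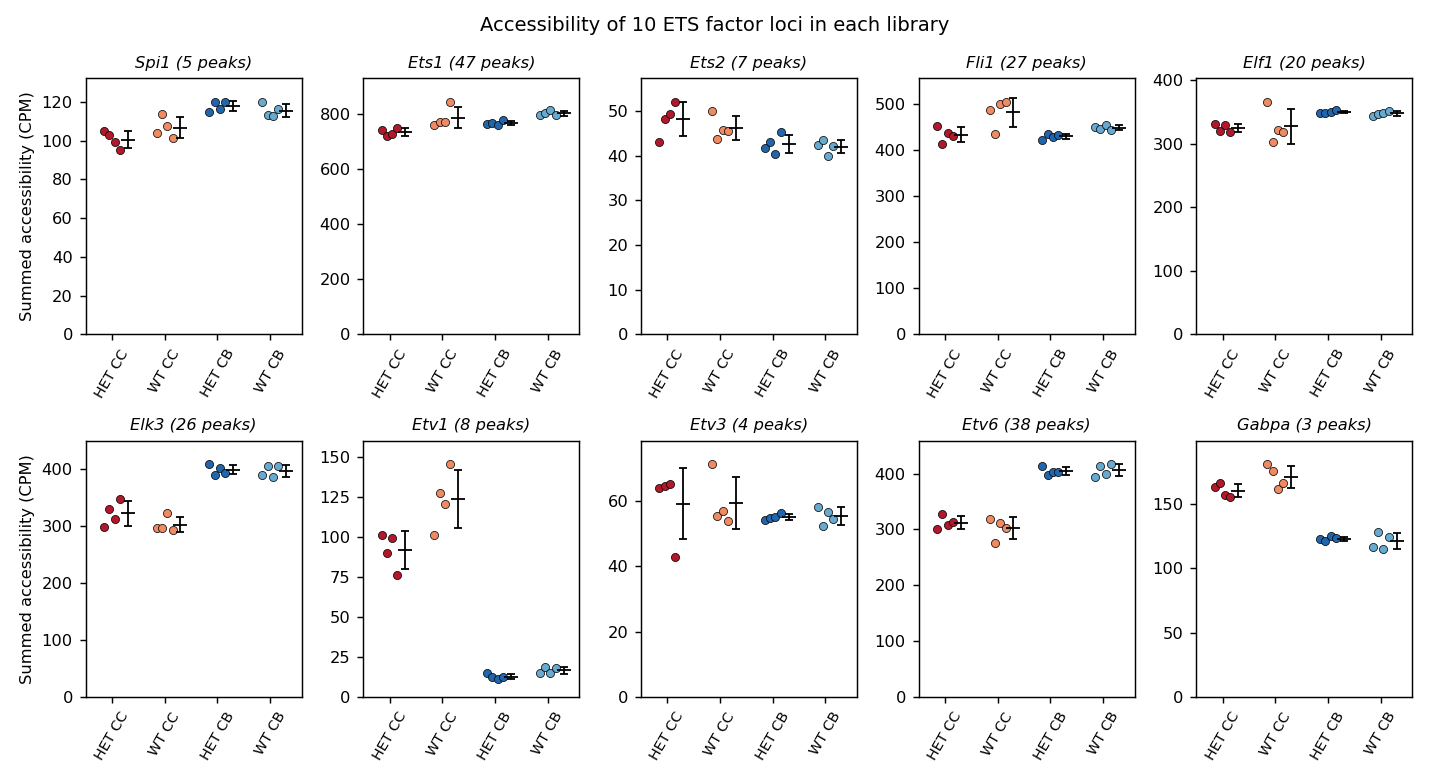
Summed accessibility (CPM) of the peaks of each ETS locus in every library, by group; points are libraries, the bar beside them is mean ± SD (n = 4), and each panel's axis starts at 0. The Etv1 locus stands between 76.1 and 102 CPM in HET CC and between 10.96 and 14.8 CPM in HET CB, while the Ets1 locus stays between 719.7 and 845 CPM over all 16 libraries.

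All ETS peaks have the same width, so the mean CPM per peak can be set side by side. Over the 16 libraries it was highest at Gabpa (47.9 CPM), followed by Spi1 (22.0), Elf1 (16.9), Fli1 (16.6), Ets1 (16.5), Etv3 (14.3), Elk3 (13.7), Etv6 (9.37), Etv1 (7.65) and Ets2 (6.39). The median of the 185 peaks was 10.5 CPM, against 6.62 CPM over all peaks. Single ETS peaks ranged from 1.43 to 87.3 CPM, with the highest at the Gabpa start.

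Peak by peak, 5 of the 10 loci held calls in both directions between CC and CB in HET (Ets1, Fli1, Elf1, Elk3 and Etv6), and 7 did in WT (the same with Spi1 and Ets2). In HET, 107 of the 185 ETS peaks were called, 50 higher in CC and 57 lower, where 58.8% of all peaks were called. In WT, 117 were called, 58 higher in CC and 59 lower, where 57.9% of all peaks were called. The median log2 difference over the 185 was -0.04 in HET and 0.02 in WT, against 0.002 and -0.007 over all peaks. The shares of 57.8% in HET and 63.2% in WT are close to those of all peaks.

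Both genotypes gave calls of the same sign for 44 ETS peaks higher in CC and 47 lower, none was called in opposite directions, and 52 were called in neither. The HET and WT comparisons use different libraries. At Etv1 all 8 peaks and at Gabpa all 3 were higher in CC in both genotypes. Etv6 leaned the other way, with 4 higher and 18 lower in HET and 6 higher and 18 lower in WT, as did Elk3, with 5 higher and 10 lower in HET and 5 higher and 14 lower in WT. Ets1 split almost evenly, with 13 higher and 17 lower in HET and 17 higher and 16 lower in WT.

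**Figure D2:**
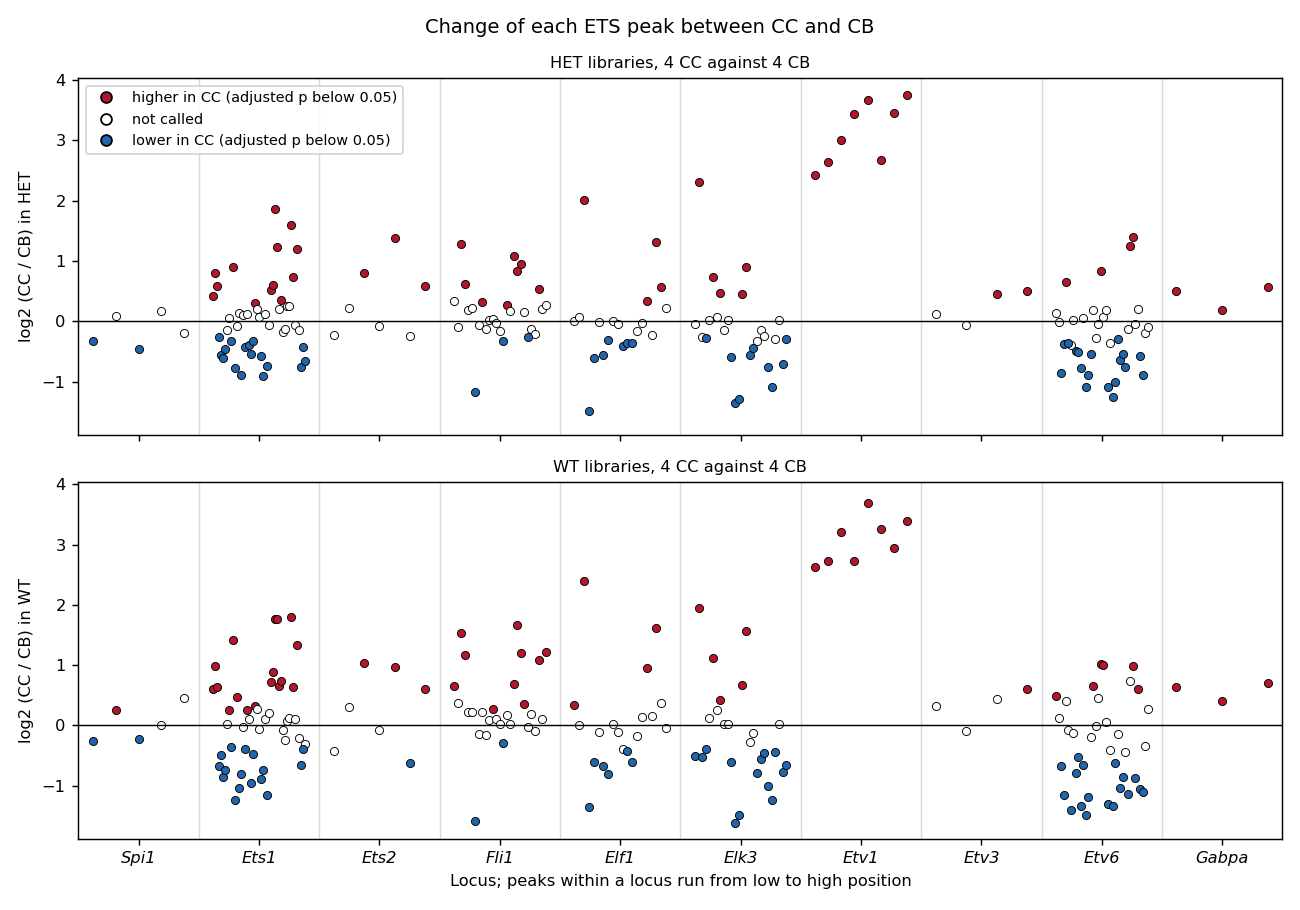
Log2 difference between CC and CB for each of the 185 ETS peaks, in HET above and in WT below, ordered by position within a locus; filled points have an adjusted p below 0.05. All 8 Etv1 peaks lie above 2 on the log2 scale in both panels, and the next highest is Elk3 peak 2 in HET (2.31) and Elf1 peak 3 in WT (2.39).

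Of the 12 ETS peaks within 1 kb of a gene end, 3 were higher in CC and none lower in HET, and 7 were higher and none lower in WT. Over all 17301 peaks so placed, 28.8% were higher and 28.3% lower in HET, and 32.8% were higher and 23.7% lower in WT. Of the 48 ETS peaks outside the genes, 13 were higher and 19 lower in HET, and 15 were higher and 21 lower in WT. Over all 19724 peaks outside genes, 30.8% were higher and 24.9% lower in HET, and 28.4% were higher and 26.1% lower in WT. The ETS counts thus leaned to lower and the background to higher, but Elk3 alone held 16 of the 48. Its 16 had 2 higher and 9 lower in HET and 2 higher and 11 lower in WT. The lean rests largely on that locus and is not shown for the family. The 125 inside divided into 34 higher and 38 lower in HET, and 36 higher and 38 lower in WT, where 28.2% of all 37748 such peaks were higher and 30.9% lower in HET, and 27.1% higher and 31.4% lower in WT. No difference between these places was tested.

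Etv1, a PEA3-type activator, had by far the largest differences among the 10 loci. Its 8 summed peaks gave 102, 90.1, 99.6 and 76.1 CPM in HET CC, against 101, 128, 121 and 145 CPM in WT CC. The CB libraries gave 14.8, 12.5, 10.96 and 12.5 CPM in HET CB and 15.2, 19.1, 14.7 and 18.1 CPM in WT CB. Every CC library therefore lay above every CB library, while HET and WT overlapped within both cell labels. The locus was 7.23-fold higher in CC than in CB in HET (log2 2.85, SE 0.1, adjusted p = 1.28e-20) and 7.39-fold higher in WT (log2 2.89, SE 0.11, adjusted p = 3.22e-20). The 4 groups ran in the order WT CC, HET CC, WT CB, HET CB.

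All 8 Etv1 peaks took part. Peak 3 (chr12:38779241-38779741), 591 bp before the gene start of the printed Etv1 window and the nearest peak to it, held 21.5, 21.9, 22.3 and 15.5 CPM in HET CC, against 26.7, 30.6, 28.8 and 29.3 CPM in WT CC. The CB libraries held 3.00, 2.13, 2.38 and 2.65 CPM in HET CB and 2.51, 3.61, 3.10 and 3.24 CPM in WT CB, with no overlap between CC and CB in either genotype. Its log2 difference between CC and CB was 3.00 in HET (SE 0.14, adjusted p = 1.54e-24) and 3.21 in WT (SE 0.15, adjusted p = 6.56e-25). Peaks 1 and 2 lie 1709 and 1129 bp before the gene and differed by log2 2.42 and 2.65 in HET and 2.62 and 2.73 in WT. Among the 5 peaks inside the gene, peak 8 (chr12:38863902-38864402) averaged 9.59 ± 2.83 CPM in HET CC and 0.706 ± 0.223 CPM in HET CB (SD, n = 4 each; log2 3.76, SE 0.25, adjusted p = 1.25e-18). In WT, peak 8 averaged 14.6 ± 4.5 CPM in CC and 1.40 ± 0.350 CPM in CB (log2 3.39, SE 0.25, adjusted p = 2.52e-17). Peak 5 (chr12:38788516-38789016) stood at 4.44 ± 0.809 CPM in HET CC and 0.342 ± 0.0828 CPM in HET CB (SD, n = 4 each), and in WT at 5.80 ± 1.92 CPM in CC and 0.455 ± 0.126 CPM in CB. Across the 8 peaks the log2 difference ranged from 2.42 to 3.76 in HET and from 2.62 to 3.68 in WT.

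Markers of several other cell types, though not of erythroid cells and megakaryocytes, were mostly higher in CC than in CB, as the Etv1 locus was. Of 11 T cell markers with a peak, 9 were higher and 1 lower in CC in HET, and 9 were higher and 2 lower in WT. Among all genes, 31.1% were higher and 31.7% lower in HET, and 31.6% were higher and 31.8% lower in WT. These shares are the background of every marker list below as well. The summed level of the T cell markers was 423 to 494 CPM in HET CC, 487 to 592 in WT CC, 294 to 304 in HET CB and 312 to 318 in WT CB. Among the defining ones, Cd3e differed by log2 2.07 in HET and 1.97 in WT, Cd8a by 3.23 in HET and 3.09 in WT, while Cd4 gave -0.18 (adjusted p = 0.288) and -0.74 (adjusted p = 0.000729), and Cd28 and Lck had no peak. Between the genotypes in CC, 4 of the 11 measured T cell markers were lower in HET and none was higher. The log2 differences of the 11 ran from -0.94 to 0.45, with a median of -0.17. Of all genes, 3.36% were lower in that comparison.

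Of 7 NK cell markers, 5 were higher and none lower in CC in HET and 4 were higher and none lower in WT, with sums of 263 to 269.9 CPM in HET CC, 267 to 319 in WT CC, 222 to 229.8 in HET CB and 217 to 230.3 in WT CB. Of 8 myeloid markers with a peak, 6 were higher and 1 lower in HET and 7 were higher and 1 lower in WT, with sums of 258 to 297 CPM in HET CC, 269 to 278 in WT CC, 163 to 167 in HET CB and 170.5 to 179.5 in WT CB. Of 6 endothelial and stromal markers with a peak, 4 were higher and none lower in each genotype, with sums of 233 to 251 CPM in HET CC, 251 to 302 in WT CC, 169.7 to 189 in HET CB and 178 to 195 in WT CB. No peak was found for the myeloid markers Lyz2, Mpo, Elane and S100a8 or for the endothelial markers Tek and Cldn5. Of 3 erythroid and megakaryocyte markers with a peak, none was higher and 2 were lower in each genotype, with sums of 65.0 to 91.5 CPM in HET CC, 56.7 to 66.1 in WT CC, 94.7 to 102 in HET CB and 90.8 to 101 in WT CB. These 3 lists besides the erythroid one were thus mostly higher in CC, as Etv1 was. The part of these cells in the Etv1 difference was not tested.

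Of the 7 germinal center B cell markers, 6 were lower and 1 was higher in CC in HET and 6 were lower and none higher in WT. Their sums were 811 to 1001 CPM in HET CC, 692 to 799 in WT CC, 1270.0 to 1289 in HET CB and 1279 to 1314 in WT CB. Of 7 B cell markers, 5 were lower and none higher in each genotype, with sums of 1217 to 1283 CPM in HET CC, 1242 to 1406 in WT CC, 1503 to 1515 in HET CB and 1571 to 1657 in WT CB. Their part in the falls at ETS loci was not tested either.

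**Figure D3:**
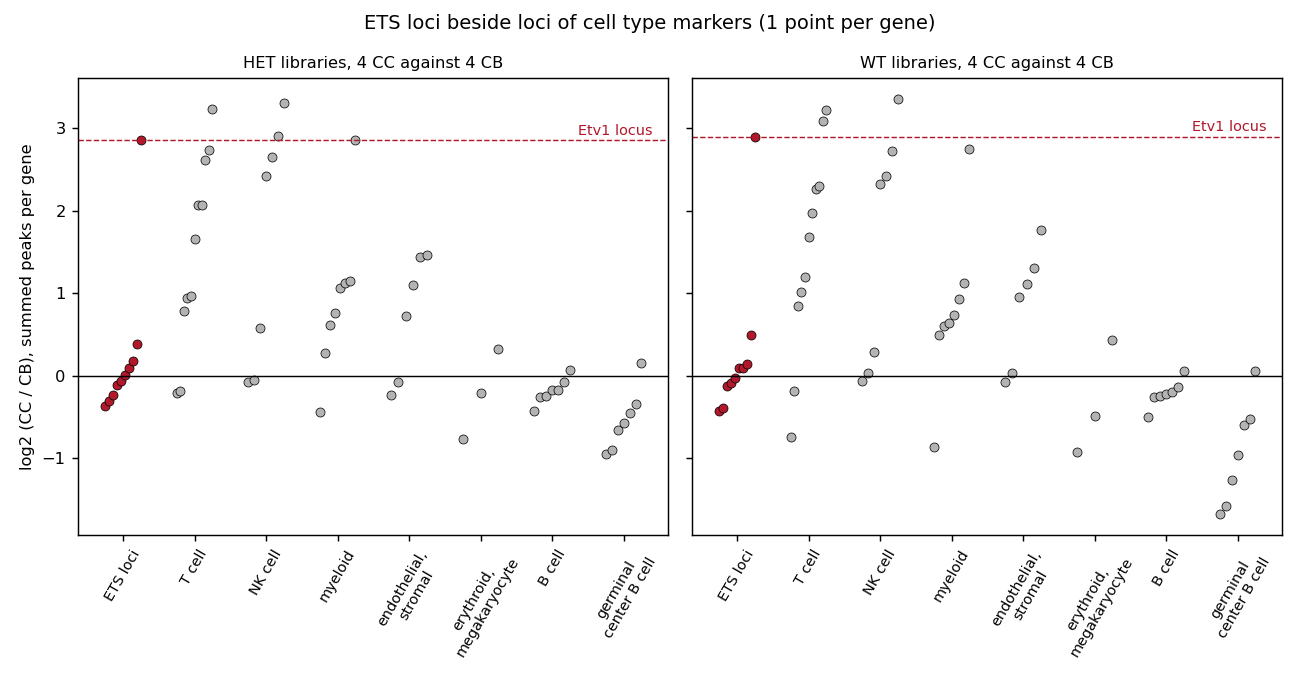
Log2 difference between CC and CB of summed peaks per gene, in HET at left and in WT at right, for the 10 ETS loci and for 7 lists of cell type markers, 1 point per gene; the dashed line is the Etv1 locus. Etv1, at 2.85 in HET and 2.89 in WT, stands apart from the other 9 ETS loci. It is level with the higher T cell and NK cell markers and with the highest myeloid marker (2.85 in HET and 2.75 in WT).

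Gabpa, the DNA-binding subunit of GABP, was higher in CC through all 3 of its peaks. The locus sum was 163, 166, 157 and 155 CPM in HET CC, against 180.4, 175, 162 and 166 CPM in WT CC. In CB it was 123, 121, 125 and 123 CPM in HET CB and 116, 128, 115 and 124 CPM in WT CB, below every CC library of the same genotype. It was 1.30-fold higher in CC in HET (log2 0.38, SE 0.047, adjusted p = 5.66e-09) and 1.41-fold higher in WT (log2 0.50, SE 0.05, adjusted p = 5.95e-11).

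Peak 1 (chr16:84834771-84835271) covers the whole printed Gabpa window and is the highest of the 185, with 111, 98.8, 99.7 and 96.7 CPM in HET CC, against 116, 110.4, 97.0 and 106 CPM in WT CC. CB libraries had 72.2, 69.3, 70.5 and 71.8 CPM in HET CB and 66.5, 72.8, 66.1 and 72.7 CPM in WT CB, so CC and CB did not overlap. The log2 difference was 0.51 in HET (adjusted p = 1.93e-11) and 0.63 in WT (adjusted p = 6.08e-13). Peak 2 beside it differed less, by log2 0.19 in HET (adjusted p = 0.0162) and 0.40 in WT (adjusted p = 1.4e-05), and its HET groups overlapped. The HET call at peak 2 was lost without HET CB replicate 1 (adjusted p = 0.0513) or HET CC replicate 2 (adjusted p = 0.12), and in libraries thinned to the smallest total (adjusted p = 0.132). Both peaks also lie in the span of Atp5j, a subunit of the mitochondrial ATP synthase, and count for it too. Peak 3, 15580 bp beyond the gene, gave log2 0.57 in HET and 0.71 in WT; without HET CC replicate 2 its HET difference had an adjusted p of 0.0598, and in thinned libraries one of 0.156.

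Spi1, the gene of PU.1, was slightly lower in CC than in CB in HET and was not called in WT. Its 5 peaks together gave 105, 103, 99.2 and 95.1 CPM in HET CC, against 104, 114, 108 and 101 CPM in WT CC. In CB they gave 115, 119.8, 116 and 119.8 CPM in HET CB and 120.1, 113, 113 and 116 CPM in WT CB. The HET libraries did not overlap between CC and CB, and the WT libraries did. The log2 difference was -0.23 in HET (SE 0.049, adjusted p = 0.000129) and -0.12 in WT (SE 0.054, adjusted p = 0.0591), and the interaction of -0.11 had an adjusted p of 0.55.

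The Spi1 peaks did not move as one. Peak 3 (chr2:91096449-91096949), inside the gene and the highest of the 5, had 33.4, 34.0, 32.7 and 26.2 CPM in HET CC, against 27.5, 39.2, 37.5 and 32.0 CPM in WT CC. Its CB values were 42.0, 44.5, 41.1 and 44.2 CPM in HET CB and 42.5, 40.1, 37.6 and 39.5 CPM in WT CB, above every CC library in HET and overlapping in WT. It was lower in CC in both genotypes, with log2 -0.45 in HET (adjusted p = 3.31e-06) and -0.23 in WT (adjusted p = 0.0253). Peak 1 (chr2:91078469-91078969), 3655 bp below the lower-coordinate end of the gene, was also lower in CC in both genotypes, with log2 -0.32 in HET (adjusted p = 0.00101) and -0.25 in WT (adjusted p = 0.0232).

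Peak 2 (chr2:91082837-91083337), 713 bp inside that end, was higher in CC in WT (log2 0.25, adjusted p = 0.018) and was not called in HET (log2 0.09, adjusted p = 0.354). Peak 4 averaged 9.49 ± 0.554 CPM in HET CC and 8.33 ± 0.613 CPM in HET CB (SD, n = 4 each), and peak 5 near the other end averaged 1.97 ± 0.519 and 2.22 ± 0.269 CPM; neither was called in any comparison. The WT calls at peaks 1, 2 and 3 rest on single libraries. Without WT CC replicate 1 the adjusted p was 0.07 at peak 1, 0.0592 at peak 2 and 0.229 at peak 3, without WT CC replicate 2 it was 0.0752 at peak 1 and 0.124 at peak 2, without WT CC replicate 3 it was 0.0722 at peak 1, without WT CC replicate 4 it was 0.0861 at peak 3, and without WT CB replicate 1 it was 0.053 at peak 1 and 0.0703 at peak 3. The HET call at peak 3 held without any 1 of the 16 libraries. With every library thinned to the smallest total, the call at peak 1 was lost in HET (adjusted p = 0.173) and in WT (adjusted p = 0.448), and that at peak 3 in WT (adjusted p = 0.322).

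Ets1 and Fli1 are neighbors on mouse chromosome 9, with 92.8 kb between their spans, and 15 of their peaks lie in that interval. Of these 15, 5 were higher in CC and 6 lower in HET, and 7 were higher and 6 lower in WT. The Ets1 sum was 743, 719.7, 729 and 749 CPM in HET CC, against 761, 773, 771 and 845 CPM in WT CC. In CB it was 765, 768, 761 and 779.9 CPM in HET CB and 797, 804, 816 and 797 CPM in WT CB. CC and CB did not overlap in HET and overlapped in WT, and neither difference was called (log2 -0.06, adjusted p = 0.0893 in HET; log2 -0.03, adjusted p = 0.469 in WT).

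The level Ets1 sum covers large opposite movements along the locus. Peak 30 (chr9:32695701-32696201), its highest, had 86.2, 70.7, 71.0 and 69.2 CPM in HET CC, against 79.5, 90.1, 72.2 and 87.3 CPM in WT CC. The CB libraries held 50.6, 52.3, 51.1 and 52.8 CPM in HET CB and 47.4, 49.6, 49.2 and 53.7 CPM in WT CB, below every CC library. It was higher in CC by log2 0.52 in HET (adjusted p = 6.8e-10) and 0.72 in WT (adjusted p = 7.29e-13). Low peaks gave the largest differences: peak 32 averaged 6.17 ± 1.67 CPM in HET CC and 1.68 ± 0.165 CPM in HET CB (SD, n = 4 each; log2 1.86, adjusted p = 4.13e-10), and differed by log2 1.76 in WT (adjusted p = 8.85e-09). Peak 40 differed by log2 1.60 in HET and 1.80 in WT.

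Just outside the lower-coordinate end of Ets1, peak 12 (chr9:32632851-32633351) fell to 5.24 ± 0.740 CPM in HET CC, against 8.95 ± 0.212 CPM in HET CB (SD, n = 4 each; log2 -0.78, adjusted p = 3.44e-05). In WT it fell to 3.99 ± 1.11 CPM in CC, against 9.51 ± 0.854 CPM in CB (log2 -1.24, adjusted p = 6.61e-07). Peak 13, 117 bp from that end and the nearest of the 47 to either end, was not called in HET (log2 -0.07, adjusted p = 0.765) and was called in WT (log2 0.48, adjusted p = 0.0419). That WT call was lost without any of WT CB replicates 2, 3 and 4 (adjusted p = 0.0738, 0.0594 and 0.0506) and WT CC replicates 2, 3 and 4 (adjusted p = 0.0581, 0.21 and 0.0794), and in 5 other settings (adjusted p up to 0.189).

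**Figure D4:**
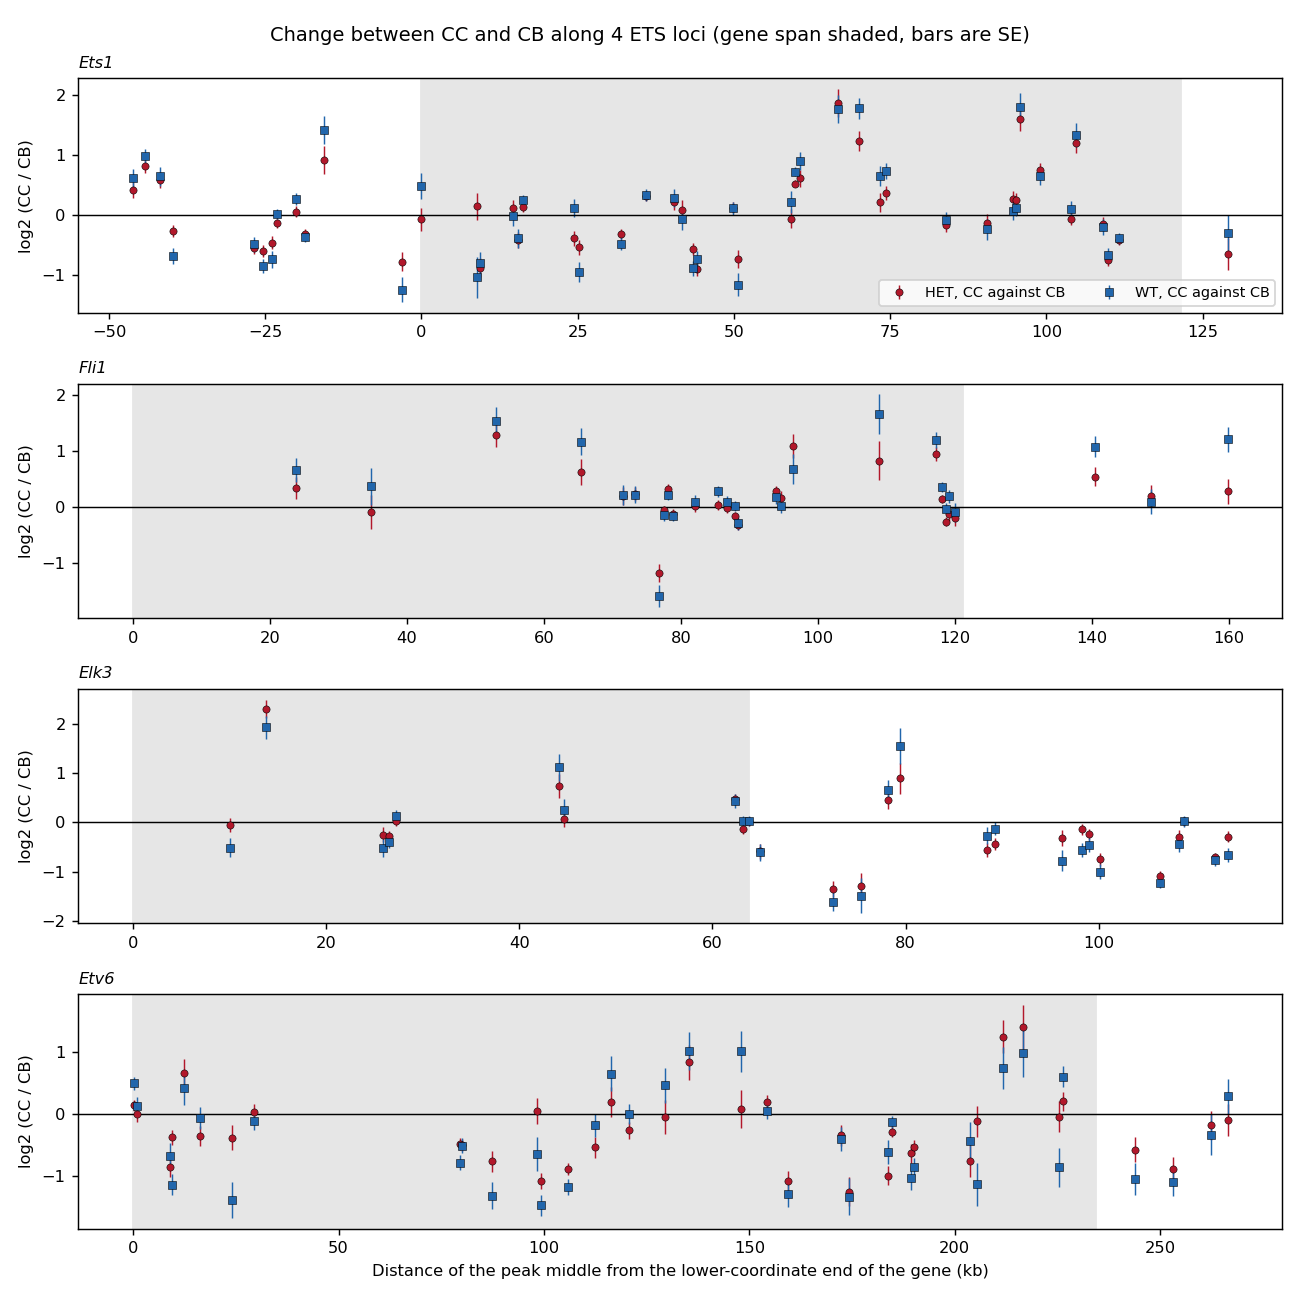
Log2 difference between CC and CB of each peak (point, with SE as bar) against its distance from the lower-coordinate end of the gene (kb), for Ets1, Fli1, Elk3 and Etv6, in HET (circles) and WT (squares); the gene span is shaded. Higher and lower peaks are interspersed along Ets1, partly in runs of like direction, while most of the Elk3 peaks beyond the higher-coordinate end lie below 0.

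Fli1 sums were 452, 413, 436 and 430.0 CPM in HET CC, against 487, 435, 499 and 504 CPM in WT CC. In CB they were 422, 435, 427 and 431 CPM in HET CB and 449.7, 444, 454 and 442 CPM in WT CB, and CC and CB overlapped in both genotypes. The locus was higher in CC in WT by log2 0.10 (adjusted p = 0.021) and not called in HET (log2 0.01, adjusted p = 0.781). The WT call was lost without WT CC replicate 3 (adjusted p = 0.0763) or replicate 4 (adjusted p = 0.0909) with peaks limited to 10 kb (adjusted p = 0.103) and in thinned libraries (adjusted p = 0.0545).

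Within Fli1, peak 7 (chr9:32498699-32499199) had 5.85, 6.33, 2.83 and 7.92 CPM in HET CC, against 5.56, 4.12, 5.92 and 3.28 CPM in WT CC. Among CB libraries it had 13.9, 12.6, 12.8 and 13.4 CPM in HET CB and 16.1, 13.3, 13.9 and 13.7 CPM in WT CB, above every CC library. It was lower in CC, with log2 -1.17 in HET (adjusted p = 5.24e-09) and -1.59 in WT (adjusted p = 7.58e-10). Peak 8, the next along the gene, gave log2 -0.06 in HET and -0.14 in WT, neither called, and peak 9 after it was higher in CC in HET (log2 0.33, adjusted p = 0.00147) and not called in WT (log2 0.22, adjusted p = 0.0689). In the other direction, peak 3 was higher in CC by log2 1.29 in HET and 1.54 in WT, and peak 20 by 0.95 and 1.20. Peak 21, the highest of the locus, was not called in HET (log2 0.15, adjusted p = 0.0749) and was higher in CC in WT (log2 0.36, adjusted p = 0.000155), with an interaction of -0.21 and an adjusted p of 0.465. Peak 24, 1190 bp from the gene end and the nearest of the 27 to one, gave log2 -0.20 in HET (adjusted p = 0.223) and -0.09 in WT (adjusted p = 0.662).

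Elk3, a ternary complex factor that partners SRF, was lower in CC in both genotypes. The locus had 298, 329.6, 313 and 348 CPM in HET CC, against 296, 297, 323 and 294 CPM in WT CC. Its CB levels were 408, 390.5, 403 and 394 CPM in HET CB and 389, 406, 386 and 406 CPM in WT CB, above every CC library. The log2 difference was -0.31 in HET (SE 0.041, adjusted p = 4.4e-08) and -0.39 in WT (SE 0.044, adjusted p = 6.32e-10). Limited to peaks within 10 kb of the gene, it was -0.08 in HET (adjusted p = 0.153) and -0.13 in WT (adjusted p = 0.0334).

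Of the 16 Elk3 peaks outside the gene, 2 were higher and 9 lower in CC in HET, and 2 were higher and 11 lower in WT. Peak 22 (chr10:93353480-93353980), 42571 bp beyond the gene and the highest of the locus, had 13.6, 21.8, 20.6 and 22.7 CPM in HET CC, against 14.4, 16.8, 18.6 and 18.1 CPM in WT CC. In CB it had 42.5, 40.8, 42.0 and 41.8 CPM in HET CB and 39.0, 39.6, 38.6 and 42.5 CPM in WT CB, with no overlap. It differed by log2 -1.08 in HET (adjusted p = 2.93e-15) and -1.23 in WT (adjusted p = 3.48e-14). Peak 12, 8724 bp out, gave the largest WT fall of all ETS peaks (log2 -1.61, adjusted p = 1.07e-09) and log2 -1.36 in HET (adjusted p = 6.12e-11). Peak 13 beside it gave log2 -1.29 in HET (adjusted p = 2.79e-05) and -1.49 in WT (adjusted p = 0.000265). In libraries thinned to the smallest total, Elk3 peak 13 gave log2 -0.58 in HET and lost its call (adjusted p = 0.223).

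Peak 10 (chr10:93310967-93311467), which covers the printed Elk3 window, had 23.9, 23.8, 23.4 and 23.0 CPM in HET CC, against 22.8, 22.4, 23.7 and 20.2 CPM in WT CC. Its CB values were 22.3, 22.1, 25.1 and 23.4 CPM in HET CB and 21.7, 21.8, 21.2 and 22.4 CPM in WT CB, and CC and CB overlapped within each genotype. Its log2 difference was 0.02 in HET and 0.03 in WT, neither called (95% interval of the WT difference -0.18 to 0.24). Of the 8 Elk3 peaks inside the gene, 3 were higher and 1 lower in CC in HET, and 3 were higher and 3 lower in WT. Among them, peak 2 was higher in CC, unlike the locus sum, at 11.2 ± 2.68 CPM in HET CC and 2.24 ± 0.192 CPM in HET CB (SD, n = 4 each). Its log2 difference was 2.31 in HET (adjusted p = 1.97e-15) and 1.94 in WT (adjusted p = 2.57e-10).

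Etv6, a repressor needed by blood stem cells, was lower in CC in both genotypes. Its 38 peaks summed to 300.0, 327, 307 and 313 CPM in HET CC, against 319, 276, 312 and 303 CPM in WT CC. In CB they summed to 414, 398, 403 and 403 CPM in HET CB and 394, 414, 399 and 416 CPM in WT CB, above every CC library. The log2 difference was -0.37 in HET (SE 0.04, adjusted p = 2.35e-10) and -0.42 in WT (SE 0.042, adjusted p = 3.62e-11). Peak 13 (chr6:134134657-134135157) fell most of the 38 in WT, with 7.396, 8.97, 6.80 and 11.2 CPM in HET CC, against 4.17, 4.71, 6.20 and 10.4 CPM in WT CC. The CB libraries held 17.5, 18.7, 18.8 and 19.1 CPM in HET CB and 17.3, 17.9, 17.7 and 18.6 CPM in WT CB; the log2 difference was -1.09 in HET (adjusted p = 3.32e-10) and -1.48 in WT (adjusted p = 1.2e-10). Peak 7 was next in WT, with log2 -1.40 (adjusted p = 4.04e-05), and gave -0.39 in HET (adjusted p = 0.0859). Peak 24 gave the largest fall of the locus in HET (log2 -1.26, adjusted p = 1.4e-05) and log2 -1.34 in WT.

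In WT, the start of Etv6 went against most of the called peaks inside the gene, of which 5 were higher and 16 lower in CC. Peak 1 (chr6:134035569-134036069), which overlaps 181 bases of the printed window, had 34.4, 29.8, 38.3 and 32.3 CPM in HET CC, against 54.2, 34.7, 47.4 and 35.0 CPM in WT CC. Among CB libraries it had 29.9, 31.4, 28.3 and 31.8 CPM in HET CB and 30.0, 33.9, 28.3 and 29.8 CPM in WT CB. It was higher in CC in WT (log2 0.49, adjusted p = 2.03e-05) without overlap and was not called in HET (log2 0.14, adjusted p = 0.174), where CC and CB overlapped. The interaction, -0.35, had an adjusted p of 0.257, so the genotypes are not shown to differ there. Peak 26, the highest of the locus, was lower in CC in HET (log2 -0.29, adjusted p = 0.00274) and not called in WT (log2 -0.14, adjusted p = 0.208, or 0.00639 without WT CC replicate 4).

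Elf1, an activator in lymphoid cells, was slightly lower in CC in HET and not called in WT, with log2 -0.11 in HET (adjusted p = 0.0168) and -0.09 in WT (adjusted p = 0.0712). The sums were 330.3, 319.5, 329 and 318 CPM in HET CC, against 366, 303, 322 and 318 CPM in WT CC. In CB they were 349, 348, 349 and 352 CPM in HET CB and 343, 347, 348 and 352 CPM in WT CB, above every CC library in HET and overlapping in WT. Without WT CC replicate 1 the WT difference became a call (log2 -0.15, adjusted p = 0.00219), and with total counts as the scaling the HET call was lost (adjusted p = 0.0979).

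Inside Elf1, peak 3 was higher in CC by log2 2.01 in HET (adjusted p = 7.36e-09) and 2.39 in WT (adjusted p = 2.49e-09), the largest difference of either sign outside Etv1 in WT. Peak 4 (chr14:79510162-79510662), the only ETS peak with a library at 0 counts, had 1.03, 2.51, 2.08 and 1.55 CPM in HET CC, against 3.61, 0, 1.97 and 2.46 CPM in WT CC. Its CB levels were 6.40, 4.87, 4.37 and 4.998 CPM in HET CB and 5.34, 4.58, 5.31 and 5.52 CPM in WT CB; it gave the largest fall of all ETS peaks in HET (log2 -1.49, adjusted p = 3.14e-06) and log2 -1.35 in WT (adjusted p = 0.000259). Peak 6, at an internal RefSeq start, gave log2 -0.01 in HET and -0.11 in WT, neither called.

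Ets2, a factor that Ras and MAP kinase signals activate, had no peak in its gene: all 7 of its peaks lay 28270 to 48823 bp beyond it, and the nearest to its start was 46912 bp away. They are assigned by distance alone. The sum was 43.0, 48.1, 49.2 and 52.0 CPM in HET CC, against 50.01, 43.7, 45.7 and 45.6 CPM in WT CC. In CB it was 41.6, 43.0, 40.4 and 45.2 CPM in HET CB and 42.2, 43.5, 40.0 and 42.2 CPM in WT CB. CC and CB overlapped in HET and not in WT. The HET call (log2 0.18, adjusted p = 0.0247) was lost without HET CB replicate 1 (0.0537) or 3 (0.0774) and without HET CC replicate 3 (0.0513) or 4 (0.112), and in thinned libraries (0.25), all adjusted p-values. In WT the log2 difference was 0.14 (adjusted p = 0.118). Peaks 1 and 4, the nearest and the highest, gave log2 -0.23 and -0.08 in HET (adjusted p = 0.234 and 0.591) and -0.42 and -0.08 in WT (adjusted p = 0.0884 and 0.69). Peak 3 was higher in CC in both genotypes, by log2 0.80 in HET (adjusted p = 4.01e-05) and 1.04 in WT (adjusted p = 6.6e-06).

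Etv3, a repressor linked to the growth arrest of macrophages, was not called in sum between CC and CB. Its 4 peaks gave 63.8, 64.5, 65.0 and 42.8 CPM in HET CC, against 71.1, 55.2, 56.9 and 53.9 CPM in WT CC. In CB they gave 54.1, 54.8, 54.9 and 56.4 CPM in HET CB and 58.2, 52.2, 56.6 and 54.3 CPM in WT CB. The log2 difference was 0.10 in HET (adjusted p = 0.302) and 0.10 in WT (adjusted p = 0.345); without HET CC replicate 4, the lowest library, HET gave log2 0.23 and a call (adjusted p = 0.00567). Peak 2 (chr3:87525299-87525799), 29 bp from the RefSeq start and over the whole printed window, held 57.5% of the locus, with 37.7, 35.8, 29.3 and 24.2 CPM in HET CC, against 33.4, 28.0, 29.0 and 30.1 CPM in WT CC. In CB it had 32.5, 33.8, 32.5 and 33.5 CPM in HET CB and 35.1, 29.3, 32.7 and 31.6 CPM in WT CB, overlapping CC in both genotypes (log2 -0.06 in HET, -0.09 in WT, neither called). Inside the gene, peak 4 was higher in CC by log2 0.51 in HET (adjusted p = 0.00187) and 0.61 in WT (adjusted p = 0.00101, or 0.0716 in thinned libraries).

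Between the genotypes in CC, 7 of the 185 ETS peaks were called, 2 higher and 5 lower in HET than in WT. That is 3.78% of the ETS peaks, where 2.06% of all peaks were called. The median log2 difference of the 185 was -0.08, against -0.002 over all peaks. Fli1, Elf1, Etv1 and Etv6 held the 7 peaks. With the CC libraries alone, Fli1 peak 27 was the 1 peak still called, and in thinned libraries Fli1 peak 27 and Etv6 peak 4 were the 2. Over all peaks the calls fell too, from 889 higher and 805 lower in the main fit. They came to 77 and 109 with the CC libraries alone and to 501 and 398 in thinned libraries. In the main fit of this comparison, 4 of the 7 germinal center B cell markers were higher in HET CC and 4 of the 11 T cell markers were lower. Of all genes, 3.27% were higher and 3.36% lower. The part of these markers' cells in the ETS differences was not tested.

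Fli1 peak 27 (chr9:32581772-32582272) had the largest difference. It lies 38590 bp from Fli1 and 54219 bp from Ets1. It had 2.92, 4.09, 2.27 and 4.04 CPM in HET CC, against 5.28, 7.36, 9.30 and 11.2 CPM in WT CC. Its CB values were 3.02, 2.55, 2.25 and 3.38 CPM in HET CB and 4.07, 3.39, 3.61 and 3.24 CPM in WT CB. Every HET CC library was below every WT CC library (log2 -1.29, SE 0.26, adjusted p = 0.00611), and the call held without any 1 of the 16 libraries (adjusted p 0.00531 to 0.0338). In CB the genotypes differed by log2 -0.35 (adjusted p = 0.609), and the interaction of -0.93 had an adjusted p of 0.194.

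Its neighbor in the same interval, Fli1 peak 25 (chr9:32562418-32562918), had 7.91, 8.84, 10.4 and 5.74 CPM in HET CC, against 11.7, 10.6, 14.1 and 18.3 CPM in WT CC. These groups did not overlap (log2 -0.75, adjusted p = 0.0362). The call was lost without HET CC replicate 2 (0.0731) or 4 (0.149) and without WT CC replicate 3 (0.0664) or 4 (0.162), all adjusted p-values. Peak 26 between them was not called (log2 -0.08, adjusted p = 0.91).

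Etv6 peak 4 (chr6:134045030-134045530), 9.58 kb inside the gene, was higher in HET CC. It had 13.2, 11.6, 9.63 and 16.9 CPM in HET CC, against 5.002, 9.42, 7.33 and 8.21 CPM in WT CC, without overlap (log2 0.79, SE 0.19, adjusted p = 0.0196). The call was lost without HET CC replicate 4 (adjusted p = 0.114) or WT CC replicate 1 (adjusted p = 0.0853). The CB libraries held 16.6, 17.0, 16.2 and 17.3 CPM in HET CB and 17.8, 15.2, 17.0 and 16.02 CPM in WT CB, with a log2 difference of 0.02 (adjusted p = 0.983).

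Elf1 held 3 of the 7. Peak 16 (chr14:79537349-79537849) had 24.4, 20.7, 17.2 and 18.3 CPM in HET CC, against 31.1, 25.6, 26.5 and 28.7 CPM in WT CC, without overlap (log2 -0.47, adjusted p = 0.0336). Peak 1 (chr14:79481341-79481841), 397 bp from a RefSeq start and the highest of the locus, had 49.5, 45.4, 49.1 and 40.4 CPM in HET CC, against 63.9, 49.8, 61.2 and 52.3 CPM in WT CC, without overlap (log2 -0.31, adjusted p = 0.0439). Peak 8, named after its values were seen, was higher in HET CC with overlapping libraries, at 17.2, 27.3, 27.4 and 20.3 CPM in HET CC, against 17.2, 17.1, 15.8 and 15.1 CPM in WT CC (log2 0.51, adjusted p = 0.0448). Leaving out single libraries ended the call for 5 of the 16 libraries at peak 16 (adjusted p up to 0.112), for 11 at peak 1 (up to 0.165) and for 12 at peak 8 (up to 0.201).

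Etv1 peak 3 was the seventh, with the CC values given above (log2 -0.51, SE 0.14, adjusted p = 0.047), and 12 of the 16 left-out libraries ended its call (adjusted p up to 0.191). All 8 Etv1 peaks had a negative log2 difference in CC, from -0.75 to -0.05. The summed Etv1 locus was lower in HET CC than in WT CC (log2 -0.43, SE 0.1, adjusted p = 0.0124), with overlapping libraries. Without HET CC replicate 4 the adjusted p was 0.0538, and without WT CC replicate 4 it was 0.0532. The difference in CB was of like size but was not called (log2 -0.40, adjusted p = 0.0614), and the interaction was -0.03 (adjusted p = 0.952). The CB difference was called with DESeq2 (adjusted p = 0.0372), with the CB libraries alone (0.0253), with the replicate number as a block (0.0489) and without any 1 of 7 libraries (0.0158 to 0.043).

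The summed Fli1 locus was also lower in HET CC (log2 -0.15, SE 0.041, adjusted p = 0.0214), with overlapping libraries. This call was lost without HET CC replicate 2 (0.0949) or 4 (0.061), without WT CC replicate 3 (0.0612) or 4 (0.0688) with peaks limited to 10 kb (0.0622) and with the CC libraries alone (0.11), all adjusted p-values. The Ets1 sums of HET CC and WT CC did not overlap, yet their difference was not called (log2 -0.10, adjusted p = 0.0751). In CB, the HET sums lay below the WT sums without overlap at both loci. Neither CB difference was called (Ets1 log2 -0.06, adjusted p = 0.525, and Fli1 log2 -0.06, adjusted p = 0.617). The interaction was -0.04 at Ets1 (adjusted p = 0.808) and -0.09 at Fli1 (adjusted p = 0.504). Spi1 differed by log2 -0.08 in CC (95% interval -0.20 to 0.04, adjusted p = 0.424) and 0.03 in CB (95% interval -0.06 to 0.11, adjusted p = 0.88).

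**Figure D5:**
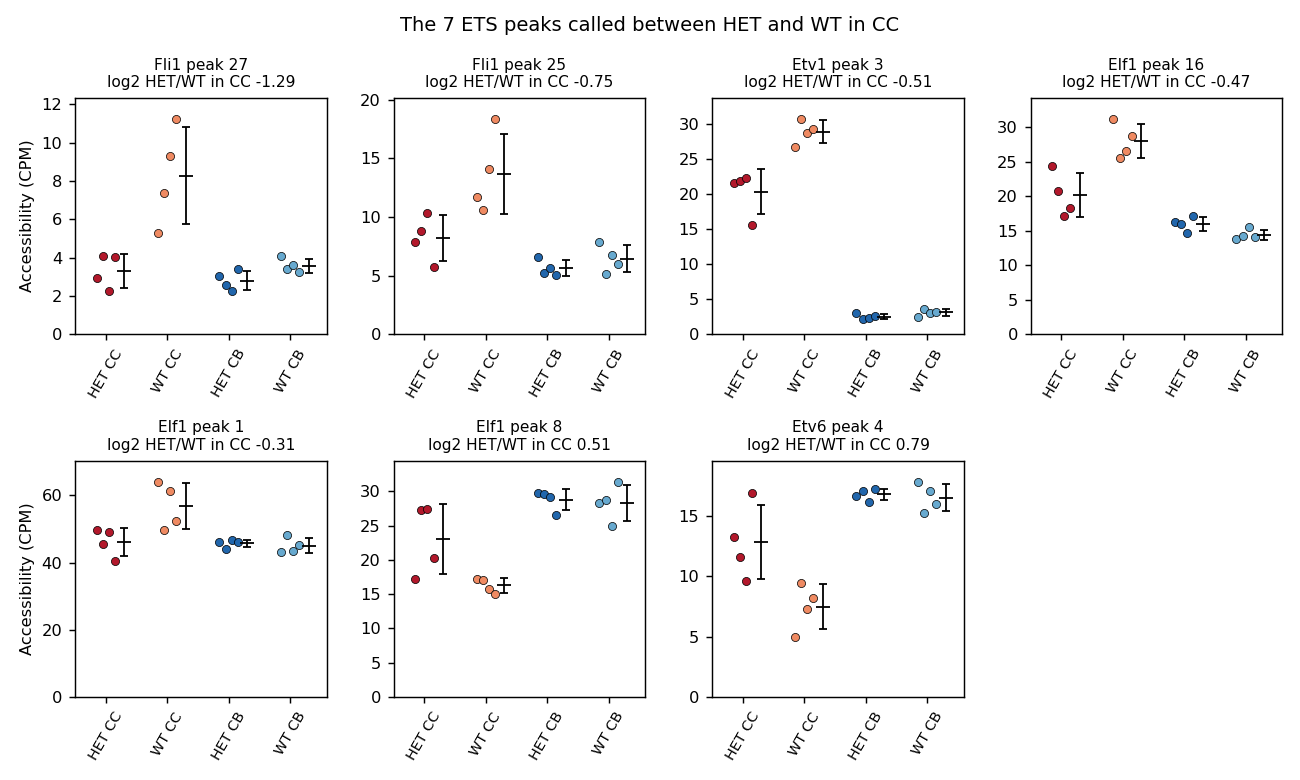
Accessibility (CPM) of the 7 ETS peaks called between HET and WT in CC, in every library by group; points are libraries, the bar beside them is mean ± SD (n = 4), and axes start at 0. At Fli1 peak 27 the 4 HET CC libraries lie between 2.27 and 4.09 CPM and the 4 WT CC libraries between 5.28 and 11.2.

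Set beside their CC against CB differences in WT, which share the WT CC libraries with this comparison, the 5 peaks lower in HET CC had positive WT values: 1.21 at Fli1 peak 27, 1.08 at Fli1 peak 25, 3.21 at Etv1 peak 3, 0.96 at Elf1 peak 16 and 0.34 at Elf1 peak 1, on the log2 scale. The 2 peaks higher in HET CC had negative ones, -1.15 at Etv6 peak 4 and -0.80 at Elf1 peak 8. In HET, the same 7 gave 0.28, 0.54, 3.00, 0.34, 0.01, -0.38 and -0.31 in that order, and this comparison shares the HET CC libraries. The shared libraries tie both sets to the choice of the peaks.

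In CB no ETS peak was called between HET and WT, where 0.129% of all peaks were. DESeq2 called 1 of the 185, where it called 119 peaks higher and 528 lower among all 82188. With the CB libraries alone, edgeR called 3 ETS peaks lower in HET, where it called 416 peaks higher and 660 lower over all peaks. The main edgeR fit called none. The smallest adjusted p belonged to Etv1 peak 8, with 1.02, 0.653, 0.640 and 0.506 CPM in HET CB, against 1.29, 1.41, 1.02 and 1.86 CPM in WT CB (log2 -1.0, adjusted p = 0.0957). The lowest WT value and the highest HET value were alike, so the libraries overlapped. For the interaction no ETS peak was called by the main edgeR fit, where 0.159% of all peaks were. DESeq2 called 3, where it called 834 higher and 518 lower over all peaks.

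Among 16 other ETS family genes, 13 had a peak, with 69 peaks in all, and Ehf, Spdef and Erg had none. Between CC and CB, 3 were higher and 5 lower in each genotype, near the shares of all genes called (62.8% in HET and 63.4% in WT). None was called between the genotypes in either cell label, where 6.63% of all genes were in CC and 0.555% in CB. Etv4, of the PEA3 group like Etv1, went the other way, with log2 -0.68 in HET (adjusted p = 4.76e-10) and -0.97 in WT (adjusted p = 4.79e-12). Spic, a relative of PU.1 known from red pulp macrophages, was higher in CC by log2 1.98 in HET and 2.28 in WT, Erf by 0.60 and 0.77, and Etv5 by 0.39 and 0.35. Spib, the closest relative of PU.1 in B cells and named after its values were seen, was lower in CC, with log2 -0.33 in HET (adjusted p = 3.33e-06) and -0.33 in WT (adjusted p = 9.09e-06).

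All 8 partner genes had peaks. In HET, 1 was higher and 4 lower in CC, and in WT none was higher and 4 were lower. Among all genes, 62.8% were called in HET and 63.4% in WT, so these counts are not above the background. Irf8, a partner of PU.1, gave log2 -0.28 in HET and -0.39 in WT, Irf4 gave -0.19 and -0.13, Pax5 gave -0.24 and -0.26, and Gabpb1, the partner subunit of GABPA, gave -0.29 and -0.22, all called. Runx1, a partner of ETS1, was higher in HET (log2 0.13, adjusted p = 0.0112) and not called in WT (log2 0.09, adjusted p = 0.118). Srf, Cbfb and Gabpb2 were not called in either genotype, with log2 values of -0.05, 0.09 and 0.12 in HET and 0.00, 0.11 and 0.10 in WT. None of the 8 was called between the genotypes, where 6.63% of all genes were in CC and 0.555% in CB.

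Of 12 genes known as ETS or PU.1 targets, 4 were higher and 7 lower in CC in HET, and 3 were higher and 5 lower in WT. Among all genes, 31.1% were higher and 31.7% lower in HET, and 31.6% were higher and 31.8% lower in WT. Il7r, the interleukin-7 receptor, was higher by log2 2.71 in HET (adjusted p = 5.93e-16) and 2.58 in WT (adjusted p = 5.05e-15), in the direction of the T cell markers above. Csf1r, the receptor of macrophage colony-stimulating factor, was higher by log2 1.13 in HET and 0.64 in WT, and Itgam, which encodes CD11b, by 0.62 and 0.60, like most myeloid markers above, among which both also count. Fcgr2b, the inhibitory Fc receptor, was lower in CC, with log2 -0.42 in HET and -0.52 in WT, as was Csf3r, the receptor of granulocyte colony-stimulating factor, with -0.44 and -0.86. Between the genotypes in CC, Csf3r (log2 0.42, adjusted p = 0.0209) and Csf2ra (log2 0.17, adjusted p = 0.0437) were higher in HET, and Cybb (log2 -0.24, adjusted p = 0.033) was lower. Of all genes, 3.27% were higher and 3.36% lower in that comparison.

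The genes most like Spi1 over the 16 libraries, by the root mean square difference of centred log2 CPM among 7568 genes, were Tcf20 (0.047), Slc38a1 (0.0478) and Phf20 (0.0491), against a median of 0.174. Those most like Ets1 were Ywhaq (0.0352), Ero1b (0.036) and Dtwd2 (0.0392), against a median of 0.16. Both loci vary little between libraries. At Ets1, a small difference shows mainly a like flat level. At Spi1, it also takes in a slight fall in CC. Mean levels in HET CC and HET CB were 100.6 and 117.7 CPM at Spi1 and 97.3 and 112.2 CPM at Tcf20. They were 200.6 and 238.1 CPM at Slc38a1 and 150.1 and 173.9 CPM at Phf20.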

How the data were processed

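The data are 1 table of raw counts of ATAC-seq reads in 82188 peaks of 501 bp on mm10, deposited by the authors for 16 mouse spleen libraries. Per the submitters' processing notes, FastQC, BWA, deepTools and R 4.2.1 were used. For peak calling, pooling and counting, the tools are not given in the sources used here. There were 0 value columns of no sample. Each peak was assigned to the nearest of 21900 protein-coding RefSeq genes (GRCm38.p6); peaks in overlapping spans counted for each.

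Counts of all peaks, and sums per gene, were fitted over all 16 libraries with edgeR 4.0.16 (R 4.3.3; TMM, filterByExpr, which removed 0 peaks, robust quasi-likelihood, 1 coefficient per group) and tested two-sided. The fits were tested on simulated data. Tables used Python 3.11.15 and pandas 2.3.3, figures matplotlib 3.10.9. Alternatives were total counts, DESeq2 1.42.0, other filters, only the groups compared, replicate block, binomial thinning to 3494356 counts, a 10 kb limit and leaving out each library.

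Single peaks were named as the highest of each locus, the nearest to the gene start or end, and up to 6 per direction with the largest called, non-overlapping differences. Other peaks (all of Spi1 and Gabpa, and Ets1 12, 32 and 40, Fli1 3, 8, 9, 20 and 26, Elk3 2, Elf1 3 and 8, Ets2 3 and Etv3 4) were named after their values were seen. The loci, the lists (other ETS genes, partners, targets and 7 marker lists) and the naming rule were chosen with earlier results of these data known.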

Additional observations from a re-analysis of the deposited data

Results flagged for a closer look

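In 8 of the 180 sets of 4 libraries looked at (the 10 ETS loci and the named peaks, in each group), 1 library stood apart from the other 3 by more than Dixon's criterion at the 0.05 level allows. That criterion alone flags about 0.05 of such sets by chance. Among locus sums, WT CC replicate 4 had 845 CPM at Ets1 (the others 761, 773 and 771), WT CC replicate 3 had 323 CPM at Elk3 (the others 296, 297 and 294), and HET CC replicate 4 had 42.8 CPM at Etv3 (the others 63.8, 64.5 and 65.0).

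Among single peaks, HET CB replicate 1 was lowest at Spi1 peak 5, with 1.82 CPM. HET CC replicate 1 was highest at Ets1 peak 30, with 86.2 CPM. At Etv1, HET CC replicate 4 was lowest at peak 3 (15.5 CPM), WT CC replicate 2 was lowest at peak 5 (2.94 CPM), and HET CC replicate 2 was highest at peak 6 (3.96 CPM). HET CC replicate 4 is also the library without which the Etv1 locus lost its HET against WT call in CC and the Etv3 locus gained a CC against CB call in HET.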

How the results depend on the processing

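CC against CB calls were the firmest. Of the ETS peaks called, 68 of 107 in HET and 85 of 117 in WT kept their call in every alternative. For HET against WT in CC, 1 of 7 did. That count of 7 became 4 with total counts as scaling, 16 with DESeq2, 1 with the CC libraries alone and 2 with thinned libraries. Calls over all peaks moved too, from 889 higher and 805 lower in the main fit. They became 1168 and 490 with total counts, 2154 and 2496 with DESeq2, 77 and 109 with CC alone and 501 and 398 thinned. In CB, the count of 0 ETS peaks became 1 with DESeq2 and 3 with the CB libraries alone, and the interaction gave 3 with DESeq2. Over all peaks, CB calls rose from 2 higher and 104 lower to 119 and 528 with DESeq2. They rose to 416 and 660 with the CB libraries alone, and interaction calls rose from 105 and 26 to 834 and 518 with DESeq2. For locus sums, HET against WT in CB gave 1 with DESeq2 and 1 with the CB libraries alone, in place of 0. In CC it gave 1 with the CC libraries alone and 1 with the 10 kb limit, in place of 2. Over all genes, the CB calls rose from 4 higher and 80 lower to 49 and 221 with DESeq2. They rose to 121 and 378 with the CB libraries alone. Those in CC fell from 495 and 509 to 123 and 152 with CC alone and to 421 and 450 with the 10 kb limit. The causes were not tested.

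Leaving out each library in turn gave 0 to 0 ETS peaks for HET against WT in CB, 1 to 10 in CC, 99 to 109 for CC against CB in HET, 103 to 118 in WT and 0 to 1 for the interaction. The lowest CC count, 1, was without HET CC replicate 4; without HET CC replicate 2 it was 2, without WT CC replicate 1 or 3 it was 3, and without HET CB replicate 1, 2 or 3 it was 4. Over all peaks, CC calls likewise fell to 190 higher and 170 lower without HET CC replicate 4, and to 185 and 153 without replicate 2. They rose to 1428 and 1305 without HET CC replicate 1 and to 1544 and 1447 without replicate 3. For loci the counts were 0 to 1, 0 to 2, 6 to 7, 4 to 6 and 0 to 0. No difference reversed its sign among calls.

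Same-numbered libraries had weak positive correlations of their deviations between CC and CB of a genotype (0.0287 to 0.0736). Between HET and WT the correlations were -0.12 to 0.0087. None exceeded 0.1, the limit set for a pair, so the numbers were not taken as pairs. Some differently numbered libraries correlated more, such as HET CB replicate 2 with WT CB replicate 1 (0.119). Within HET, CB replicate 2 correlated more with CC replicate 4 (0.052) than with CC replicate 2 (0.0287). A weak shared deviation within a genotype is not excluded. With a replicate block, 4 ETS peaks were called for HET against WT in CC and 1 locus in CB. Over all features, that block called 698 peaks higher and 589 lower in CC, and 0 genes higher and 63 lower in CB. The depth of the CC libraries limits small differences at low peaks.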
